A study of Homo sapiens with 21 samples.

Results

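The ID family (inhibitors of DNA binding) was followed in HMLE cells, an immortalized human mammary epithelial cell line, through 20 days of TGFβ. Its members were taken by symbol from the deposited table, and all 4 (*ID1*, *ID2*, *ID3* and *ID4*) were among its 23201 genes. RNA-seq libraries of total RNA came from untreated cells (d0) and from cells given TGFβ for 1, 4, 7, 10, 15 or 20 days (d1, d4, d7, d10, d15 and d20), with 3 libraries at each of the 7 timepoints and wells seeded at equal density. The study followed the transcriptome through an epithelial to mesenchymal transition. All libraries came from this single line and the untreated cells were given for d0 alone, so the effect of TGFβ and that of time in culture cannot be told apart.

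ID proteins carry a helix-loop-helix domain but lack the basic stretch that contacts DNA. They pair with E proteins (*TCF3*, *TCF4* and *TCF12*) and keep them, and the tissue-specific factors that need E proteins as partners, off E-box sites, by which they hold back differentiation. Their genes are classical targets of BMP signalling through SMAD1 and SMAD5, whereas TGFβ is known to raise or to lower them depending on the cell and the time, with ATF3 as one known repressor of *ID1* in epithelial cells. *ID4* is known from basal cells of the mammary gland, where it restrains luminal genes.

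*ID1*, *ID2* and *ID3* were each higher than in untreated cells at d1, d4, d7, d15 and d20, and the rise was interrupted at d10. The d1 calls of *ID2* and *ID3* did not hold in both other scalings, which were equal library totals and quantile normalisation. At d10 *ID1* stayed 1.47-fold above d0, and *ID2* and *ID3* did not pass the test. In both other scalings *ID3* was called below d0 at d10. The largest changes were 3.36-fold for *ID1* at d4, 5.30-fold for *ID2* at d7 and 2.65-fold for *ID3* at d15, on the log2 scale after adding 1. *ID4* was at the floor of detection throughout.

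The values are reads divided by a size factor for each library, here called normalised read counts, and libraries held between 18847917 and 22667754 reads. At 6 of the 7 timepoints the libraries differed from each other by a root mean square of 0.21 to 0.24 (log2, over the 13343 genes tested). The third library of d7 differed from the other d7 libraries by 0.47 and 0.46, whereas those differed by 0.22, and library numbers here are column order only. Of the genes called against d0, 51.1% to 54.6% were higher, but 26.7% to 39.1% when libraries were rescaled to the same total and 41.9% to 47.7% after quantile normalisation. The median log2 difference of all genes from d0 was at most 0.03 at any timepoint, and between -0.20 and -0.14 after rescaling to the same total, so the sign of a small change depended on the scaling. The summed level of 4 mesenchymal markers (*VIM*, *FN1*, *CDH2*, *ZEB1*) lay between 9285 and 9682 at d0 and between 595208 and 613196 at d20. At d20 most of it was *FN1* (mean 539309). Of the epithelial markers *CDH1* and *EPCAM*, the sum lay between 9004 and 9476 at d0 and between 3224 and 3314 at d20. The decline was not steady, with 7538 to 7978 (d1), 6096 to 6373 (d4), 6594 to 8186 (d7), 4042 to 4328 (d10) and 6517 to 6889 (d15). Basal markers (*KRT5*, *KRT14*, *TP63*, *ITGA6*, *EGFR*) summed to between 304269 and 323682 at d0. In treated cells the sum ran from 270495 to 281634 (d1), 259202 to 267776 (d4), 291423 to 524251 (d7), 203310 to 206250 (d10), 320507 to 332416 (d15) and 228780 to 230171 (d20). It was lowest at d10, when *ID2* and *ID3* did not pass against d0, and its part in the *ID* levels was not tested. Most of this sum was *KRT5* and *KRT14*, and the 5 markers did not move together. At d10 *KRT5* (log2 -1.15) and *TP63* (-0.29) were lower than d0, and *KRT14* (-0.09) did not pass. *ITGA6* (1.56) and *EGFR* (0.30) were higher there, and the call of *EGFR* did not hold in both other scalings. The 4 immune markers (*PTPRC*, *CD3E*, *CD14*, *CD68*) summed to between 412.9 and 424.1 at d0 and between 354.3 and 834.5 in treated cells, most of it *CD68*, while *PTPRC* and *CD3E* averaged less than 1 at each timepoint. *CD14* was lower and *CD68* higher than d0 at each treated timepoint, except *CD68* at d10 (adjusted p above the threshold). The 3 endothelial markers (*PECAM1*, *CDH5*, *VWF*) summed to between 47.2 and 54.3 at d0 and between 10.4 and 27.4 in treated cells, with *PECAM1* lower at all 6 timepoints and *CDH5* below 1 throughout, and the part of both lists in the *ID* results was not tested. In such bulk RNA, fewer cells of a kind and less RNA per cell cannot be told apart.

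*ID1* encodes the founding member of the family. In untreated cells its normalised read counts were 434.29, 346.91 and 347.28, a mean of 376.2 ± 50.3 (SD, n = 3). At d1 they were 858.72, 644.07 and 851.48, and at d4 they were 1173.67, 1233.73 and 1380.64. Neither treated timepoint overlapped d0, and d4 was above d1. At d7 the 3 libraries held 963.49, 931.01 and 973.55, and at d10 they held 568.25, 574.28 and 512.39. At d15 they held 779.35, 747.09 and 747.91, and at d20 they held 1259.24, 1121.91 and 1097.70. Each of the 18 treated libraries was thus above the highest untreated library.

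Against d0, *ID1* differed by 1.05 (d1), 1.75 (d4), 1.35 (d7), 0.56 (d10), 1.02 (d15) and 1.63 (d20) on the log2 scale, with an SE of 0.0965 for each. The adjusted p was 2.98e-05 for d10 and between 7.50e-13 and 5.41e-09 for the others (limma, Benjamini-Hochberg over all genes tested). The mean rose from d0 to d4, declined to d10 and rose again to d20. In order of level, d4 and d20 overlapped (log2 difference 0.12, adjusted p = 0.271 by limma), as did d1 and d15 (0.04, adjusted p = 0.730 by limma). The other neighbours in the order d20, d7, d1 and d15, d10, d0 did not overlap. Over all treated libraries together *ID1* was 1.23 above d0 on the log2 scale (two-sided exact permutation test, p = 0.000752, the smallest that 18 against 3 libraries allow). Here and below this test takes libraries as exchangeable, although the 3 libraries of a timepoint share their condition and d0 is a single timepoint. Its p therefore does not measure the spread between timepoints.

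*ID2*, whose product also binds the retinoblastoma protein, was far less abundant, with 3 to 30 reads in a library. Untreated libraries held 6, 4 and 4 reads, which are normalised read counts of 5.34, 3.39 and 3.96. At d1 the normalised read counts were 9.41, 9.23 and 10.92, and at d4 they were 26.29, 17.53 and 21.54. Both timepoints lay above the untreated libraries. The highest level was at d7, with 26.38, 25.02 and 27.92, and at d10 the counts were 4.98, 9.72 and 2.93. The d10 libraries spanned the d0 range, and 1 of them held 3 reads, the number treated here as the floor. At d15 the counts were 19.38, 18.99 and 10.36, and at d20 they were 11.66, 10.52 and 12.73. These lay above d0 without overlap.

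The log2 differences of *ID2* from d0 were 1.07 (d1), 2.12 (d4), 2.41 (d7), 0.29 (d10), 1.69 (d15) and 1.29 (d20), each with an SE of 0.316. By limma the adjusted p was 0.00626 at d1, 0.429 at d10 and 0.00132 at d20, and between 9.01e-07 and 5.56e-05 at d4, d7 and d15. With quantile normalisation d1 no longer passed (0.67, adjusted p = 0.0562 by limma). In order of level (d7, d4, d15, d20, d1, d10, d0) no timepoint was separated from the next beyond the spread of its libraries. *ID2* averaged under 10 at d0 and reached the tested level through treated libraries. Adding 1 before taking the logarithm understates changes of so low a gene, and on the recovered reads the difference at d7 was 2.59 by edgeR. The 18 treated libraries together were 1.48 above d0 (two-sided exact permutation test, p = 0.00526), and 16 of them were above the highest untreated library. Since *ID2* was tested through these libraries, its p against d0 and this count are not read as support for a rise. The shift was smaller with 10 added in place of 1.

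*ID3*, which shares most of its known partners with *ID1*, held normalised read counts of 850.78, 864.30 and 808.34 in untreated cells. At d1 they were 975.86, 918.93 and 961.63, and at d4 they were 1154.74, 1167.51 and 1165.22. The steps from d0 to d1 and from d1 to d4 were small and did not overlap. At d7 the counts were 2303.72, 2207.11 and 1908.00, of which the last is the library that stands apart. At d10 they were 817.05, 833.73 and 758.80, inside or below the range of untreated cells. At d15 they were 2266.66, 2163.49 and 2261.34, and at d20 they were 1487.13, 1370.29 and 1304.32. *ID3* thus had 2 maxima, at d7 and d15, which overlapped each other (log2 difference 0.06, adjusted p = 0.369 by limma).

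Against d0 the log2 differences of *ID3* were 0.18 (d1), 0.47 (d4), 1.34 (d7), -0.07 (d10), 1.41 (d15) and 0.72 (d20), each with an SE of 0.0591. By limma the adjusted p was 0.0130 at d1, 4.17e-07 at d4 and 0.324 at d10, and between 4.76e-15 and 7.70e-10 at d7, d15 and d20. The d1 difference turned to -0.01 when libraries were rescaled to the same total (adjusted p = 0.836 by limma), and without the third d0 library it was 0.15 (adjusted p = 0.0608 by limma). The d10 difference under that rescaling was -0.29 (adjusted p = 0.000127 by limma), below d0. Without the library that stands apart the d7 difference was 1.42, against 1.34 for *ID1* and 2.37 for *ID2*. Across the 18 treated libraries *ID3* was 0.67 above d0 (two-sided exact permutation test, p = 0.0496), with 15 above the highest untreated library. That p rose to between 0.0684 and 0.0702 without any one library of d7 or d15, to between 0.0544 and 0.0561 without any one of d4 or d20, and to between 0.121 and 0.142 without any one library of d0.

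**Figure D1:**
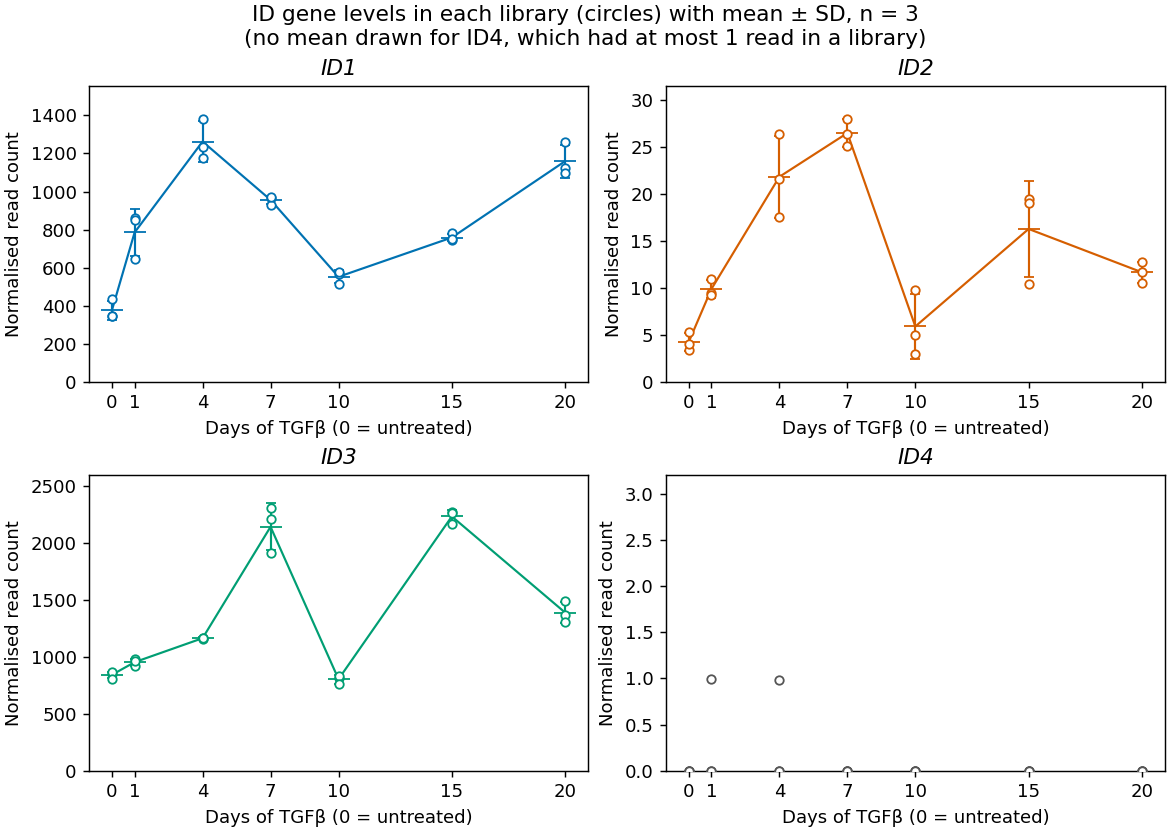
Normalised read counts (vertical axes, each from 0) of the 4 ID genes by day of TGFβ, with circles for the 3 libraries of a day and, except for *ID4*, lines and bars for mean ± SD. *ID1*, *ID2* and *ID3* drop at d10, where *ID1* averages 551.6 against 376.2 at d0, while *ID4* never exceeds 1 read.

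*ID4* had 0 reads in 19 of the 21 libraries and 1 read in each of the other two, one at d1 and one at d4. That is 2 reads of the 439721092 reads over all libraries. At depths of 18847917 to 22667754 reads a count of 0 allows up to 3 reads in a library, for counting error only. *ID4* was therefore not detectable beyond the floor of 3 reads at any timepoint and was not tested, although the basal keratins *KRT5* and *KRT14* were abundant (means of 224349 and 72774 at d0). Per the reference annotation an antisense gene lies over *ID4* and another over *ID2*. Whether strand was used in counting is not given in the sources used here, so reads of *ID2* and its antisense gene cannot be told apart. The *ID2* pseudogene *ID2B* had 1 read over all libraries.

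Levels can be compared between the members only per length. Per kilobase of the longest protein-coding transcript (1233 bases for *ID1*, 2041 for *ID2* and 1251 for *ID3* in GENCODE), untreated cells held 305 ± 40.8 of *ID1*, 2.07 ± 0.491 of *ID2* and 672 ± 23.3 of *ID3* (normalised read counts, SD, n = 3). *ID3* was thus the most abundant member before TGFβ. At d4 the level of *ID1* per kilobase was 1024 ± 86.4 and that of *ID3* was 929 ± 5.44. At d15 *ID1* stood at 615 ± 14.9 and *ID3* at 1783 ± 46.4. The annotation used for counting is not given in the sources used here, so these levels rest on another set of transcripts.

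Read against all genes, the calls of the members were not rare. *ID2* averaged 4.23 at d0, below the mean of 10 needed for testing, so it was tested only because treated libraries were higher. It was called higher at each treated timepoint except d10, and these calls are left out of the comparison with all genes. At d1 *ID1* and *ID3* were both higher, beside 31.3% of all genes tested higher and 28.5% lower. Both were also higher at d4 (all genes 36.9% higher, 35.3% lower) and at d7 (34.6% higher, 32.6% lower). At d10 *ID1* was higher and *ID3* did not pass (37% of all genes higher, 30.7% lower). At d15 and d20 both were higher again, beside 39.2% and 32.5% of all genes higher and 37.3% and 30.2% lower. The size of the change, rather than the call, therefore carries the description of these genes.

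**Figure D2:**
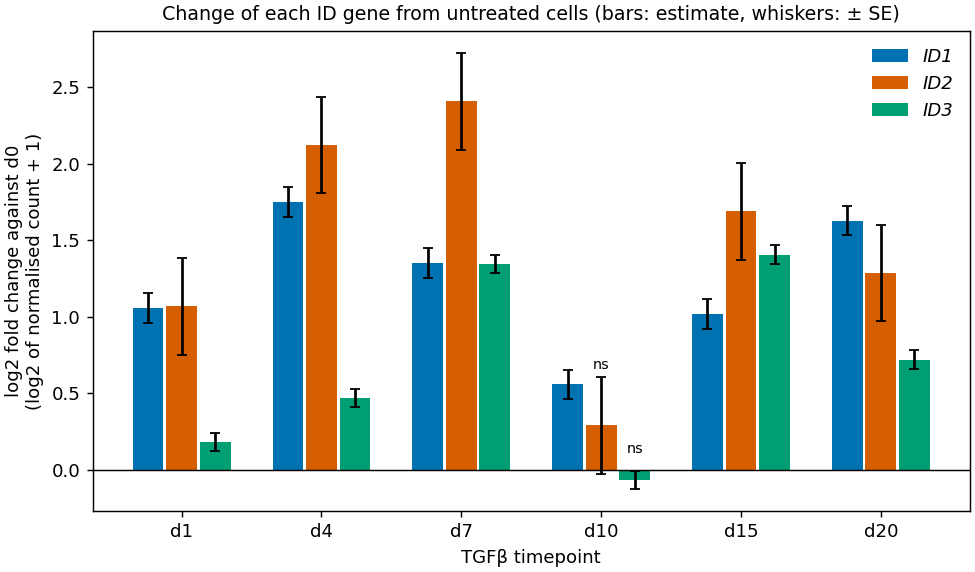
Log2 fold change of each ID gene against untreated cells (vertical axis, log2 of normalised read count + 1) by TGFβ timepoint, with bars for the limma estimate and whiskers for ± SE. Values marked ns did not pass an adjusted p of 0.05, which were *ID2* (0.29) and *ID3* (-0.07) at d10.

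The timepoints were then compared one after the other. *ID2* averaged 9.85 at d1 and 5.88 at d10, below the mean of 10 needed for testing. It was thus tested through its higher timepoints, and its changes from or to d1 and d10 are given as a description. From d1 to d4 all 3 members rose, by 0.69 for *ID1*, 1.06 for *ID2* and 0.29 for *ID3* on the log2 scale (adjusted p = 2.46e-06, 0.00603 and 0.000236 by limma). Of all genes, 32.9% rose and 32% fell over this interval. From d4 to d7 *ID1* fell by 0.40 (adjusted p = 0.00175 by limma) while *ID3* rose by 0.88 (adjusted p = 3.03e-10 by limma), and *ID2* differed by 0.28 (adjusted p = 0.472 by limma). Over the same interval 25.5% of all genes rose and 25.5% fell.

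From d7 to d10 *ID1* and *ID3* fell, with 36.2% of all genes higher and 35.2% lower. *ID2*, tested through its higher timepoints, fell too. *ID1* fell by 0.79, *ID2* fell by 2.12 and *ID3* fell by 1.41 on the log2 scale (adjusted p = 2.68e-07, 4.25e-06 and 1.93e-13 by limma). Without the d7 library that stands apart the declines were -0.78, -2.08 and -1.49. From d10 to d15 all 3 rose again, by 0.46, 1.40 and 1.47 (adjusted p = 0.000188, 0.000393 and 3.25e-15 by limma), beside 39.3% of all genes higher and 40.5% lower. From d15 to d20 *ID1* rose by 0.61 (adjusted p = 8.09e-06 by limma) while *ID3* fell by 0.69 (adjusted p = 1.19e-09 by limma). *ID2* differed by -0.40 over this last interval (adjusted p = 0.254 by limma), and 37.7% of all genes were higher and 36.3% lower. The 3 members thus moved in the same direction into and out of d10, whereas *ID1* and *ID3* moved in opposite directions from d4 to d7 and from d15 to d20.

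Apart from the 1 added before the logarithm, the ratio between members within a library does not depend on the size factor of that library. The log2 ratio of *ID1* to *ID3* was -1.17 ± 0.18 at d0 (SD, n = 3), 0.12 ± 0.11 at d4, -1.16 ± 0.16 at d7, -1.56 ± 0.03 at d15 and -0.26 ± 0.03 at d20. *ID1* thus gained on *ID3* at d1, d4, d10 and d20, when no library overlapped the untreated range of -1.31 to -0.97, and was below that range at d15, when the libraries lay between -1.59 and -1.53. Pooled over all treated libraries the shift was 0.55 (two-sided exact permutation test, p = 0.131, adjusted p = 0.196 over the 6 pairs of members). The ratio of *ID2* to *ID3* shifted by 0.80 (exact permutation p = 0.0323, adjusted p = 0.0647) and that of *ID1* to *ID2* by -0.25 (exact permutation p = 0.488, adjusted p = 0.488). None of these 3 ratios passed the threshold after adjustment, and *ID2* to *ID3* passed it without the third d10 library (adjusted p = 0.0316 by exact permutation) or the third d15 library (adjusted p = 0.0263 by exact permutation). Ratios with *ID2* depended on the constant added before the logarithm. With 10 in place of 1 the *ID2* to *ID3* shift was 0.10 (adjusted p = 0.688 by exact permutation) and the *ID1* to *ID2* shift turned to 0.44 (adjusted p = 0.108 by exact permutation). The 3 ratios with *ID4* were computed for the adjustment and are not given, since *ID4* was at the floor.

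**Figure D3:**
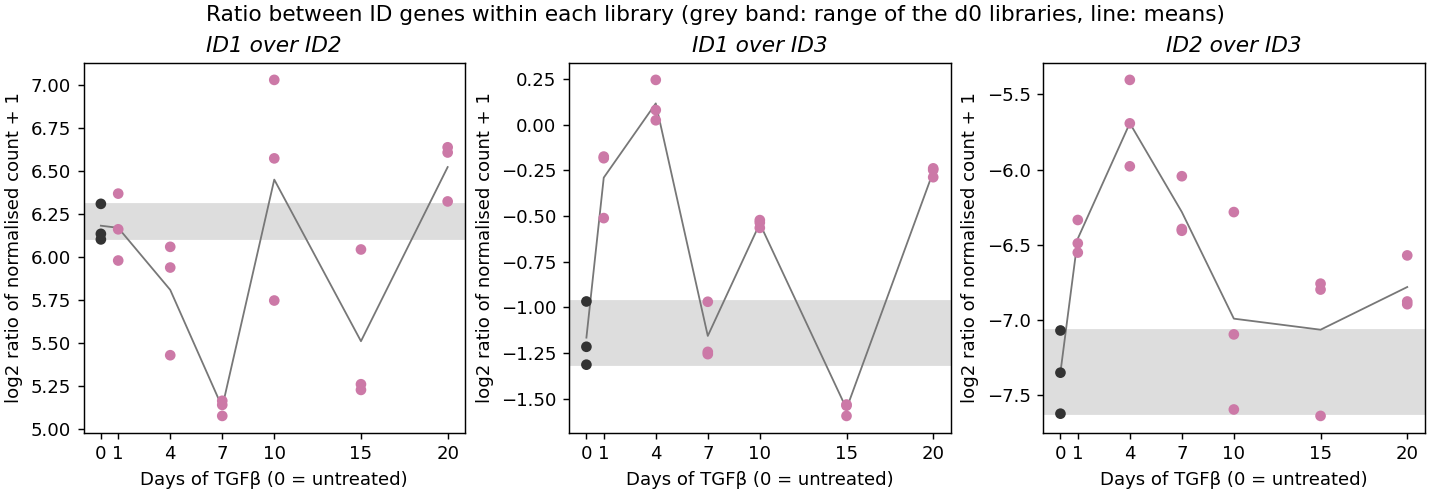
Log2 ratio of normalised read counts (+ 1) between members within each library (vertical axes, not from 0) by day of TGFβ, with points for libraries, a line for the mean and a grey band for the range of the untreated libraries. The ratio of *ID1* to *ID3* leaves the band upward at d1, d4, d10 and d20 and downward at d15, and stays near it at d7.

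Since *ID1*, *ID2* and *ID3* moved together around d10, the 250 bases before their starts are shown, from RefSeq on GRCh38.p14, for which all 4 members matched. They are written 5′ to 3′ on the strand of the gene, with capitals for the motifs searched. The *ID1* window is chr20:31605039-31605288 (plus strand), that of *ID2* is chr2:8681806-8682055 (plus strand) and that of *ID3* is chr1:23559502-23559751 (minus strand).
*ID1*: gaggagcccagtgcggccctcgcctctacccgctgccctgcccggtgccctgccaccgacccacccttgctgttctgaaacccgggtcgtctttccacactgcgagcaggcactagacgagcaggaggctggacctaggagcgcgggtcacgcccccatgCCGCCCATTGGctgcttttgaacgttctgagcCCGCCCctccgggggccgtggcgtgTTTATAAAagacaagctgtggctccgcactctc
*ID2*: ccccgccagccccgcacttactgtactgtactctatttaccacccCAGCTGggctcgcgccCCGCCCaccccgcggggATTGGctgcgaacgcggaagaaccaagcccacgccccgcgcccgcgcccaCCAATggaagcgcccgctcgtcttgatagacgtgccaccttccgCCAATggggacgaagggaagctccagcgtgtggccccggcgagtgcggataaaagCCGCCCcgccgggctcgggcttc
*ID3*: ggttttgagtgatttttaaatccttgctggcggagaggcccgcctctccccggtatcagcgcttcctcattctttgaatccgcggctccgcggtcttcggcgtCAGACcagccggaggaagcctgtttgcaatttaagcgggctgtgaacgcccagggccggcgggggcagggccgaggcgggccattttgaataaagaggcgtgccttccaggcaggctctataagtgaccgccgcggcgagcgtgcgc
The capitals mark CAGCTG, which matches the E-box motif CANNTG. They also mark CCGCCC, which is the GC box GGGCGG on the other strand. CCAAT boxes appear as CCAAT on the strand shown and as ATTGG on the other. The TATA motif appears as TATAAA on the strand shown and as TTTATA on the other. The short SMAD element is CAGAC. In *ID1* the GC box at -90 to -85 runs into ATTGG, and TTTATA at -33 to -28 overlaps TATAAA at -31 to -26. *ID2* held 3 CCAAT boxes, 2 GC boxes and 1 E-box at -205 to -200, whereas *ID3* held a CAGAC at -147 to -143 and none of the other motifs.

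The motifs were searched on both strands in the 250 bases before the start. An E-box CANNTG was in 61.8% of 35116 promoters, GGGCGG in 42.6%, CAGAC in 38.0%, CCAAT in 32.0% and TATAAA in 10.7%. No motif was shared by *ID1*, *ID2* and *ID3*. The BMP SMAD element GGCGCC (16.4% of all promoters), CACGTG (6.3%), the palindrome GTCTAGAC (0.2%) and the ATF/CREB site TGACGTCA (1.6%) were in none of the 4 windows, which says only that these letters are not within them. The window of *ID4*, the member at the floor, was the richest in G and C, at 78.8% against 66.0%, 69.2% and 62.0% in *ID1*, *ID2* and *ID3*, and held 6 GC boxes.

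The genes whose levels ran closest to each member over the 21 libraries are given as a description, and libraries of a timepoint share their condition. For *ID1* they were *ZC3H12A*, an RNase that limits inflammatory mRNAs (Pearson r = 0.950), *FAM100B* (0.948), the antioxidant enzyme *PRDX5* (0.931), *UBE2Q2* (0.931) and *CTSS* (0.911). For *ID2* they were *B4GALT1* (0.923), *PIK3IP1*, an inhibitor of PI3 kinase (0.911), the cytokine receptor kinase *JAK1* (0.905), *EFNA1* (0.902) and *ATP8B3* (0.898). *ID3* ran closest to the MHC class I gene *HLA-C* (0.972), *NMT2* (0.969), *TTYH3* (0.968), *CELSR1* (0.968) and *IL17RC* (0.965). As their choice implies, these genes followed the members over time, and *PIK3IP1* averaged 614.58 at d7, 98.69 at d10 and 603.23 at d15. Among the members r was 0.792 for *ID1* and *ID2*, 0.742 for *ID2* and *ID3* and 0.502 for *ID1* and *ID3*.

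Next, the E proteins that ID proteins bind were examined. All 3 were higher than untreated at each timepoint up to d15, and at d20 *TCF3* and *TCF4* were. *TCF4* rose from 196.1 ± 9.13 at d0 to 415.1 ± 39.1 at d7, a log2 difference of 1.07 (SE 0.071), and kept its call at all 6 timepoints under both other scalings. *TCF3* differed by 0.19 to 0.49 and *TCF12* by 0.03 to 0.52 over the timepoints. In at least one of the other scalings *TCF3* lost its call at d7 and d20, and *TCF12* at d1, d7 and d10. The median of the list at d15 was 0.52, beside 0.01 for all genes.

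Other proteins that bind ID proteins or set their stability changed in both directions. The ETS factors *ETS1* and *ELK3* were higher at all 6 timepoints (log2 1.12 to 2.24, SE 0.120, and 1.34 to 1.93, SE 0.0443), and *ELK1* passed at none. *RB1*, the retinoblastoma protein that ID2 binds, was lower at all 6, from -0.11 at d1 to -0.40 at d15 (log2, SE 0.0395). *USP1*, the deubiquitinase that spares ID proteins from the proteasome, was 2491 ± 129 at d0 and fell by 0.43 at d4, by 0.37 at d7, by 0.71 at d15 and by 0.16 at d20 (log2, SE 0.059). *CDC20*, an activator of the anaphase-promoting complex, fell by 0.51 at d4, by 0.52 at d7 and by 1.01 at d15 (SE 0.135). At d7 the library that stands apart held 7017.73 of *CDC20*, against a median of 3825.17. *ID3* was highest at d7 and d15, where *USP1* and *CDC20* were below d0, as they also were at d4. *FZR1*, of the same list, was 0.49 above d0 at d7 and did not pass at d15 (-0.03, log2, SE 0.0524). The part of these genes in the level of *ID3* was not tested. Of the 10 genes of this list, 4 (d1, d10, d15, d20) or 5 (d4, d7) were higher and 1 (d1), 2 (d10, d20), 3 (d4, d7) or 4 (d15) were lower. Of all genes, 31.3% (d1) to 39.2% (d15) were higher and 28.5% (d1) to 37.3% (d15) lower.

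Basic helix-loop-helix factors that need E proteins or repress by themselves, listed together with *MYC*, were mostly higher. *TWIST1* and *TWIST2*, drivers of mesenchymal genes, and the repressors *HES1*, *HEY1* and *BHLHE40* were higher at all 6 timepoints. Of these, *HEY1* at d10 lost its call in at least one other scaling. *HES1* differed by 0.92 (d1), 1.41 (d4), 1.14 (d7), 0.49 (d10), 1.10 (d15) and 0.79 (d20) on the log2 scale (SE 0.0828), with its lowest value at d10. *TWIST2* had its highest there instead, at 2.47 (SE 0.169), against 1.08 at d7. *BHLHE41* was higher at d4 (0.75) and lower at the other 5 timepoints, down to -2.08 at d10 (SE 0.111). *MYC* was higher at d4, d10 and d15, and the calls at d4 and d15 did not hold in both other scalings. The list's median over 7 genes was lowest at d1 (0.74) and highest at d4 (1.41), and that of all genes was between 0.00 and 0.03.

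**Figure D4:**
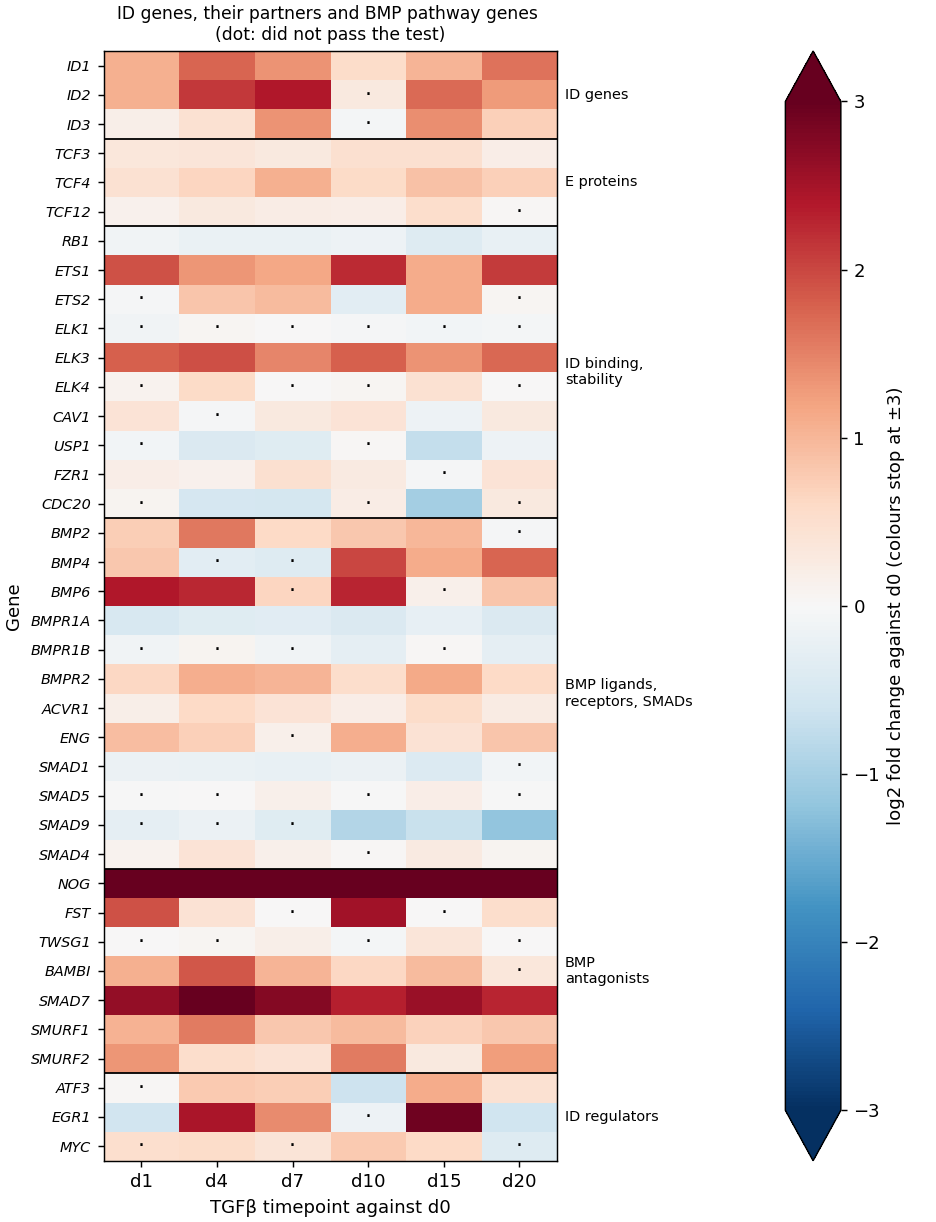
Log2 fold change against untreated cells (colour, red higher and blue lower, colours stopping at ±3) by TGFβ timepoint for the ID genes, their binding partners, BMP pathway genes and regulators, with a dot where the adjusted p was 0.05 or more. *GREM1* is left out since it had no reads at d0, and *ID4* and other low genes were not tested.

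The BMP pathway, which drives ID genes in many cells, was taken by role. Among the ligands, *BMP2* rose from 59.22 ± 2.19 at d0 to 180.1 ± 3.48 at d4, when *ID1* was highest, and was 58.44 ± 10.2 at d20 (log2 -0.03, adjusted p = 0.875 by limma). *BMP4* and *BMP6* were low. *BMP4* passed at d1 (0.80), d10 (2.00), d15 (1.11) and d20 (1.75), with an SE of 0.321 on the log2 scale, and the calls at d1 and d15 did not hold in both other scalings. *BMP6* passed at d1 (2.41), d4 (2.25), d10 (2.29) and d20 (0.84), with an SE of 0.359, and the call at d20 did not hold in both other scalings. The type II receptor *BMPR2* was higher at all 6 timepoints, from 0.53 at d10 to 1.14 at d15 (SE 0.0427). The type I receptor *BMPR1A* was lower at all 6, from -0.24 at d15 to -0.47 at d1 (SE 0.051). Both kept these calls under the other scalings, whereas *ACVR1*, higher at all 6, lost its call at d1, d10 and d20. The signal carrier *SMAD1* was lower at each timepoint except d20, by up to -0.41 at d15 (SE 0.0629). *SMAD5* passed at d7 and d15 (0.15 and 0.19), and neither call held in both scalings. *SMAD4* was higher at d1, d4, d7, d15 and d20 by at most 0.42, with the opposite call at d1 and d20 in at least one other scaling. Phosphorylation of SMAD proteins was not measured here. Of 14 genes in this list 12 were tested, of which *BMP4* and *BMP6* averaged under 10 at d0 and reached the tested level through treated libraries. Of the other 10, 5 (d1, d4, d7), 4 (d10, d20) or 6 (d15) were higher. The numbers lower were 2 (d1, d4, d7), 4 (d10) or 3 (d15, d20). Of all genes, 31.3% (d1) to 39.2% (d15) were higher and 28.5% (d1) to 37.3% (d15) lower.

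Of the secreted and intracellular inhibitors of BMP signalling, 11 were listed and 8 tested. *NOG* and *GREM1* reached the tested level only through treated libraries, in which they had to be higher. Of the other 6, 5 were higher at each timepoint up to d15 and 4 at d20, and none was lower. Of all genes, 31.3% (d1) to 39.2% (d15) were higher. Among these calls, *FST* at d4, *TWSG1* at d7 and *BAMBI* at d10 did not hold in both other scalings. *SMAD7* is also among the TGFβ target genes listed below. *NOG*, the secreted antagonist noggin, averaged 3.83 ± 1.99 at d0 and between 47.5 ± 11.7 (d7) and 86.7 ± 4.19 (d10) in treated cells. *GREM1*, the antagonist gremlin, had no reads at d0 and averaged 36.1 ± 4.35 at d1, 249.6 ± 3.71 at d10 and 779.8 ± 31.0 at d20. *SMAD7*, an inhibitory SMAD that TGFβ also induces, was higher by 2.29 to 3.10 (log2, SE 0.0673). The ubiquitin ligases *SMURF1* and *SMURF2* were higher at all 6 timepoints, by 0.70 to 1.56 and by 0.28 to 1.56, and *SMURF2* at d15 lost its call in at least one other scaling. *FST*, follistatin, was 1.90 above d0 at d1 and 2.52 at d10 (SE 0.120), beside 0.01 at d7 and 0.02 at d15. Without *NOG* and *GREM1* the list's median was 1.25 at d10 and 0.53 at d15, beside 0.03 and 0.01 for all genes.

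Other genes known to respond to BMP gave fewer values, since 5 of 9 were tested. *BAMBI*, a decoy receptor, was 1.86 above d0 at d4 and 0.63 at d10 (log2, SE 0.244), where its call did not hold in both other scalings, and the homeobox gene *MSX1* was higher at all 6 timepoints, with its maximum at d10 (2.31, SE 0.314). *SMAD6* averaged 16.3 at its highest (d4) and 2.09 at its lowest (d20), and its mean over all libraries was below the level tested. *MSX1* averaged 4.75 at d0 and reached the tested level through treated libraries. Of the other 4 genes, 2 were higher at each of d1, d4, d7 and d10, 3 at d15 and 1 at d20, and *SMAD9* was lower at d10, d15 and d20. Of all genes, 31.3% (d1) to 39.2% (d15) were higher and 28.5% (d1) to 37.3% (d15) lower.

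The 11 TGFβ target genes listed were higher at all 6 timepoints. *SKIL*, a feedback repressor of SMAD, was highest at d4 (2.44) and 1.53 at d10 (SE 0.0629). The AP-1 gene *JUNB* was 2.52 at d4, 1.21 at d10 and 2.99 at d15 (SE 0.124). The smallest difference at d10 was that of *SKI*, at 0.52. The list's median was 2.33 at d10 and between 2.35 and 2.91 at the other timepoints.

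Of the factors known to act on ID genes, *ATF3* averaged 192.7 ± 28.3 in untreated cells. Its means in treated cells were 194.8 ± 7.09 (d1), 332.0 ± 18.9 (d4), 327.0 ± 74.0 (d7), 124.2 ± 13.9 (d10), 415.8 ± 19.7 (d15) and 264.9 ± 9.46 (d20). It was thus lowest at d10, where it fell by 0.63 (log2, SE 0.127), and highest at d15, as was *ID3*. *EGR1*, an immediate early factor, was 2.45 above d0 at d4, 1.41 at d7 and 2.93 at d15 (SE 0.161), and -0.58 at d1 and -0.59 at d20. Its difference at d10 was -0.16 (adjusted p = 0.400 by limma). *KLF17* averaged 1.25 to 8.01 and was not tested.

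Cell-cycle genes linked to ID proteins differed between the timepoints too. *CDKN1A*, which encodes p21 and which E proteins activate, averaged 1812 ± 136 at d0, 2742 ± 140 at d10 and 23196 ± 429 at d15. At d7 it ranged from 4839.81, in the library that stands apart, to 22955.95. *CDKN1C* was -2.57 at d10 and 2.48 at d15, and *CDKN2B*, an inhibitor of CDK4 that TGFβ is known to induce, was -0.88 and 1.04 (log2 against d0, SE 0.322 and 0.171). *CCND1*, cyclin D1, was higher at all 6 timepoints, from 0.84 at d15 to 1.98 at d10 (SE 0.0431). Of the 7 genes, 2 (d1, d10), 3 (d20), 5 (d4, d7) or 6 (d15) were higher, and 2 (d1), 3 (d10) or 1 (d20) were lower. Of all genes, 31.3% (d1) to 39.2% (d15) were higher and 28.5% (d1) to 37.3% (d15) lower.

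Among the luminal genes linked to *ID4*, *FOXA1* and *ELF5* were too low to test, and *ELF5* had 0 reads at each timepoint before d20. *ESR1*, the estrogen receptor, passed at d15 alone (-1.45, SE 0.254). *GATA3* was higher at d4 and d15 and lower at d10 and d20, and its higher calls did not hold in both other scalings. *BRCA1* was lower at d1, d4, d7 and d15, down to -2.22 at d15 (SE 0.0561). Over all 10 lists, 64 genes were tested, of which 39 (d1), 47 (d4), 43 (d7), 39 (d10), 48 (d15) and 38 (d20) were higher. The numbers lower were 8 (d1), 6 (d4), 7 (d7), 12 (d10), 10 (d15) and 9 (d20). Over all genes tested, 31.3% (d1) to 39.2% (d15) were higher and 28.5% (d1) to 37.3% (d15) lower. The 64 genes include *BMP4*, *BMP6*, *NOG*, *GREM1* and *MSX1*, which reached the tested level through treated libraries. They also include the TGFβ target genes, listed because TGFβ is known to raise them, so the excess of higher genes is partly set by the choice of genes. With libraries rescaled to the same total 33 to 43 were higher and 11 to 19 lower, and at d1 the counts were 34 higher and 18 lower.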

How the data were processed

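RNA-seq of HMLE cells was analysed at 7 timepoints with 3 libraries each. The deposited signal is, from its values, whole read counts that the authors scaled by a single size factor in each library, with 2 decimals kept, and the factors matched a median-of-ratios calculation (ratio 0.9997 to 1.0003). The submitters' processing notes name STAR 2.7, Salmon 1.4 and the build hg19, and the annotation and strand setting are not given in the sources used here. Whole reads were recovered for 100% of values in each library, within 0.1 read.

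The 13343 genes whose mean over all 21 libraries reached 10 entered one limma 3.58.1 fit (R 4.3.3, with a trend) of log2(value + 1), with a mean for each timepoint, with the Benjamini-Hochberg method over all genes in each contrast and a threshold of 0.05. edgeR 4.0.16 (quasi-likelihood) and DESeq2 1.42.0 were run on the recovered reads, and at d20 against d0 they called 8459 and 7997 genes, beside 8365 by limma. Single values and ratios were compared by exact permutation over libraries, which takes no account of the timepoint that libraries share. The study describes the libraries as biological replicates, and columns carry no replicate numbers. Other alternatives were a pseudocount of 10, no low-value filter, rescaling to the same total, quantile normalisation, only the compared groups, and leaving out each library or the d7 libraries.

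Named genes are the 4 members, the listed and marker genes, and the 5 genes with the highest Pearson r with each member tested. The members and lists were chosen with earlier results of these data known. A count of 3 reads in a library were treated as the floor. Tests were checked on simulated data. Promoters came from RefSeq and transcript lengths from GENCODE. *CCN2* is listed as *CTGF*. Values of some listed genes are not reported here.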

Additional observations from a re-analysis of the deposited data

Results flagged for a closer look

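A change of at least 1 on the log2 scale between neighbouring treated timepoints (from d1 on), tested in the limma fit across all genes, was found in 5 cases. *ID2* rose by 1.06 from d1 to d4 (adjusted p = 0.00603 by limma), from 9 to 11 reads in a library to 18 to 25. From d7 to d10 the change was -2.12 for *ID2* (adjusted p = 4.25e-06 by limma) and -1.41 for *ID3* (adjusted p = 1.93e-13 by limma), and from d10 to d15 it was 1.40 for *ID2* (adjusted p = 0.000393 by limma) and 1.47 for *ID3* (adjusted p = 3.25e-15 by limma). Each of these held in 3 of 3 libraries against 3 of 3, without overlap. *ID2* averaged 9.85 at d1 and 5.88 at d10, below the mean of 10 needed for testing. Its cases therefore come from a gene tested through its higher timepoints. For *ID2* from d10 to d15 the closest libraries, at 9.72 and 10.36, held 10 reads each, so only the size factors set them apart. At any size of change, 32.9% of all genes were higher from d1 to d4, 35.2% lower from d7 to d10 and 39.3% higher from d10 to d15. The share of all genes without overlap is not given, so the lack of overlap is not read as a result about the members. With 3 libraries per timepoint no test for single outlying libraries was run.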

How the results depend on the processing

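No paired analysis was possible because a column names its timepoint and not its replicate. Of 729 values recomputed under the alternatives for 51 results, 697 were taken as the same as the reported value. Of the 573 for members and their ratios, 547 had its direction and call, among them all 195 of the comparisons between neighbouring treated timepoints. Of the 156 counts of listed genes, 150 stayed within a set factor of the reported count, and no direction or call was compared. Direction is counted for called values only, and *ID2* at d10, not called, ran from -0.09 to 0.63 with single libraries left out. *ID3* over all treated libraries was 0.48 after rescaling to the same total, 0.61 after quantile normalisation and 0.54 without d7 (exact permutation p = 0.202, 0.105 and 0.0993), and 0.63 to 0.72 with single libraries left out. With a pseudocount of 10, *ID2* over all treated libraries was 0.77 in place of 1.48, and the *ID2* to *ID3* shift was 0.10 in place of 0.80, which ran from 0.66 to 0.94 with single libraries left out. At d1 *ID3* was -0.01 after rescaling to the same total, 0.10 after quantile normalisation and 0.15 to 0.20 with single libraries left out, and *ID2* was 0.67 after quantile normalisation. At d10 *ID3* was -0.29 and -0.17 under these scalings and then passed the test. Rescaling to the same total raised the listed genes that were lower to 18 (d1), 11 (d4), 12 (d7), 19 (d10) and 19 (d20), and at d1 leaving out single libraries gave 5 to 8, with 5 without the first d0 library. The rescaling itself moved the median of all genes down. Other causes were not tested. Depth limits *ID2*, with 3 to 30 reads in a library, and *ID4*, with at most 1.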
